A study of Mus musculus with 24 samples.

Results

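The 9 genes described here, Fmr1, Fxr1, Fxr2, Pum2, Cpeb4, Larp1, Ddx6, Syncrip and Eif4g1, encode proteins of translation control and of neuronal RNA granules. They were taken as a named list, and every deposited peak that lay over one of their gene bodies on the gene's own strand was collected. That gave 45 peaks over 7 of the 9 genes, out of 25393 peaks over 7024 protein-coding genes and 29007 peaks in all. Fxr1 and Pum2 had none. The peaks come from RNA immunoprecipitation (RIP) with an antibody against STAU2, set by the submitters against RNA of the input lysate in mouse cortex. The labels give no strain, genotype or treatment, so the groups are named by kind of RNA and by age. At E11.5 there were 3 RIP and 3 input libraries, and likewise at E13.5, at E15.5 and finally E17.5, which makes 24 libraries in 8 groups. Each replicate was made from the pooled cortices of 1 litter. The tissue is whole cortex with all its cell types, and the lists hold no expression levels with which to check it against marker genes.

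Translation of most messenger RNAs begins when eIF4G, bound to the cap-binding protein eIF4E, bridges the cap to the poly(A)-binding protein and recruits the small ribosomal subunit. In neurons many messenger RNAs travel in granules, in which proteins such as FMRP, the pumilio and CPEB families and the helicase DDX6 hold translation back until the RNA reaches its place or a signal arrives. STAU2 belongs to such granules and binds paired stretches of RNA. The question addressed here is whether, and where, the transcripts that encode this machinery were themselves listed as STAU2 RIP peaks over the 4 embryonic days.

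There is 1 peak list per day and strand, which stands for 3 RIP and 3 input libraries. No value per replicate was used, so nothing below carries a replicate error or a test. Read depth is unknown. Peaks were ranked within a day by the authors' p-value, over both strands together; a rank of 1 is the strongest of that day, and a rank is also given as a percentage of the day's peaks, of which there are 6530 for E11.5, 5871 for E13.5, 10265 for E15.5 or 6341 for E17.5. Ranks of different days are not on a common scale. An exonic peak shares at least 1 bp with an exon of any isoform, and a straddling peak is an exonic peak that also covers bases outside the exons. Coordinates are mm10, and transcript positions are counted from the 5′ end of the longest coding isoform in GENCODE vM21. In bulk tissue, a gain or loss of a peak between days cannot be told apart from a change in the cells that hold the RNA, in its amount per cell, or in the depth of the libraries.

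The sequences below are those under the strongest exonic peak of each gene, by rank as a percentage of its day, and under the positions listed on more than 1 day, read from the GENCODE vM21 transcripts of GRCm38, 5′ to 3′ on the transcript strand. Coding peaks are shown whole, with capitals for the 30-nt window of lowest predicted minimum free energy, since STAU2 binds paired RNA. They are:
Larp1, E13.5, chr11:58047703-58047754, plus strand: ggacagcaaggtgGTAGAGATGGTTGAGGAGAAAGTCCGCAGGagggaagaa
Ddx6, E11.5, chr9:44623681-44623732, plus strand: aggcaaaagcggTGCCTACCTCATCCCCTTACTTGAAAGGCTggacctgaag
Syncrip, E11.5, chr9:88480663-88480745, minus strand: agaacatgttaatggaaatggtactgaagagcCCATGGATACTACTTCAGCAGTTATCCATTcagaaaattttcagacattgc
Eif4g1, E15.5, chr16:20686762-20686810, plus strand: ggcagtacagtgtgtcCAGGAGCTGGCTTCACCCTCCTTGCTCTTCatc

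The predicted energies of these 30-nt windows were -4.2 kcal/mol for Larp1, -5.5 for Ddx6, -6.7 for Syncrip and -6.6 for Eif4g1. For peaks that reach a 3' UTR only the window itself, or a shorter shared stretch, is shown, with capitals for the bases paired in its predicted fold. The Cpeb4 line holds all 23 exonic bases of its peak. They are:
Fmr1, E15.5, chrX:68717473-68717502, 3' UTR: gatgttgatGCAATCcttacaatGATTGCt
Fxr2, E17.5, chr11:69652627-69652656, end of the CDS: caAGGGCcCCTCAgagaaTGGGGaGCTCTc
Cpeb4, E11.5, chr11:31931305-31931327, CDS: GTGGaggttaagCCATatgtctt
Larp1, E15.5 and E17.5, chr11:58061597-58061626, 3' UTR: gtGGGGAGtgCTAGaggcTTGGgTTCCCCt
Ddx6, E11.5 and E15.5, chr9:44639351-44639377, 3' UTR: gactgttacacaCTTGctgctCAGGgc

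The Fxr2 window had the lowest predicted energy of those shown, at -13.5 kcal/mol, followed by the Larp1 window at -10.8 kcal/mol. Each window was picked as the lowest of its peak or shared stretch, and a longer stretch offers more windows. The Fxr2 peak, with 223 nt of transcript, was longer than the shared Larp1 stretch of 94 nt. With no background of such windows given, this order cannot be separated from peak length. The Fmr1 window stood at -6.4 kcal/mol. The shorter Ddx6 and Cpeb4 stretches stood at -1.2 and -2.8 kcal/mol.

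Eif4g1, the scaffold of cap-dependent initiation (chr16:20668313-20692884, plus strand), carried the most peaks of the 9 genes, 12 over the 4 days. There were none at E11.5, 2 on day E13.5, 3 on day E15.5 and 7 on day E17.5. All 12 touched an exon and none had its midpoint in a UTR, although the 450-nt 3' UTR is also the shortest of the 9 genes. Of the 12, 7 straddled exon edges and 5 lay inside exons.

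The straddling peaks of Eif4g1 lay mostly over introns, and 5 of the 7 covered a whole intron of the longest isoform. The lists hold intervals and no reads, so whether reads fell within the introns of straddling peaks cannot be told. The widest, at E17.5, ran over 734 bp (chr16:20682789-20683522, rank 1100, 17.3%) and held intron 16 with its 612 bp between short stretches of exons 16 and 17, so that 16.6% of it was exonic. At E17.5 further peaks spanned intron 14 (chr16:20681888-20682047, rank 4926) and intron 21 (chr16:20685606-20685873, rank 5427). A peak in exon 26 (chr16:20686934-20687271, rank 669, 10.6%) took in 216 of the 217 bp of intron 25. At E13.5 intron 4 was spanned (chr16:20675493-20675739, rank 4274). At E15.5 intron 19 was spanned (chr16:20684172-20684506, rank 8161), which also covers the small nucleolar RNA gene Snord66 on the same strand, so reads of Eif4g1 and Snord66 cannot be told apart there.

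The 5 Eif4g1 peaks inside exons all lay in coding sequence. At E13.5 the peak was at codons 726 to 761 in exon 14 (chr16:20681812-20681918, rank 3170, 54.0%). At E15.5 the peak shown above was at codons 1261 to 1277 in exon 25 (chr16:20686762-20686810, rank 612, 5.96%), and its sequence has a near-identical pseudogene copy. At E17.5 the strongest was at codons 341 to 363 in exon 9 (chr16:20679515-20679582, rank 495, 7.81%), with p = 0.000163 in the authors' deposited list. The other two of that day lay at codons 1433 to 1454 (rank 5984) and 1469 to 1491 (rank 2106). The peak positions were thus spread over the coding sequence and differed between days, with 1 overlap described below.

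Larp1 (chr11:58009064-58062034, plus strand) encodes an RNA-binding protein of 5′ terminal oligopyrimidine messenger RNAs, which include those of ribosomal proteins. It had no peak at E11.5, then 2 at E13.5, 1 on day E15.5 and 4 on day E17.5, all 7 inside exons. Both E13.5 peaks lay in the CDS, at codons 437 to 454 (chr11:58047703-58047754, rank 244, 4.16%, p = 4.92e-05 in the authors' deposited list) and at codons 741 to 783 (chr11:58051059-58051184, rank 1157, 19.7%). The first of these was the best ranked, as a percentage of its day, among the 45 peaks, and its sequence has a near-identical pseudogene copy. The E15.5 peak lay in the 3' UTR (chr11:58061544-58061637, rank 4921, 47.9%). At E17.5, 1 peak was in the CDS (chr11:58057335-58057383, rank 4820) and 3 were in the 3' UTR (chr11:58059690-58059739, rank 4766; chr11:58060928-58061135, rank 5360; chr11:58061514-58061643, rank 466, 7.35%). The strongest Larp1 peak was therefore coding at E13.5 and in the 3' UTR at E15.5 and E17.5.

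**Figure D1:**
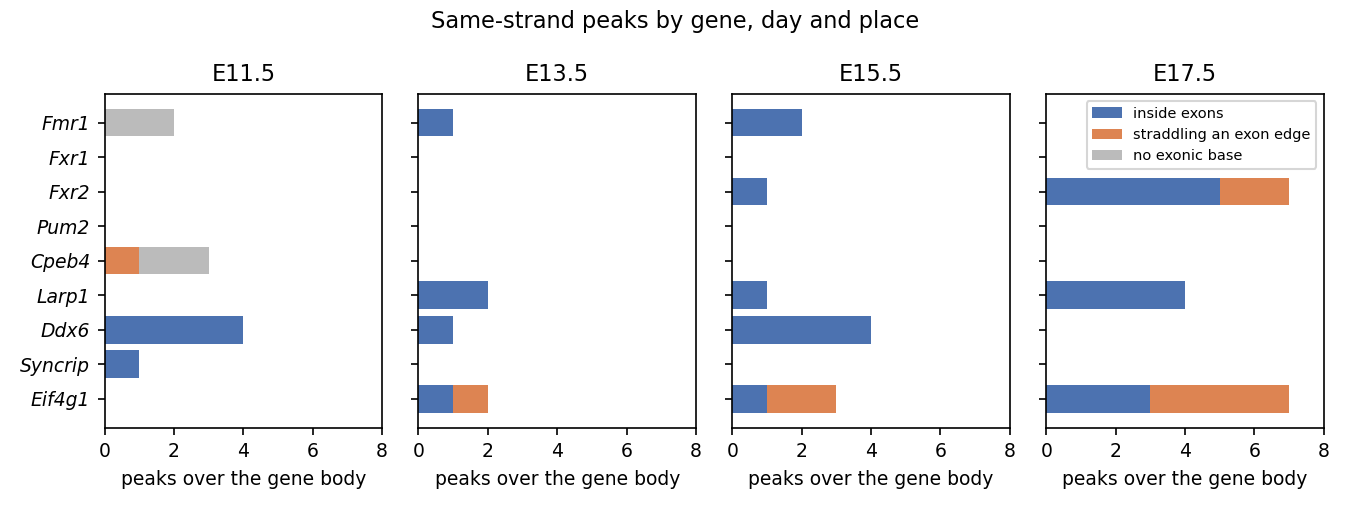
Same-strand peaks over each gene body (x axis, number of peaks) for the 9 genes on each embryonic day. Colours separate peaks inside exons, peaks straddling an exon edge and peaks with no exonic base. Fxr2 and Eif4g1 reach 7 peaks each at E17.5, and Fxr1 and Pum2 have none on any day.

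Of the fragile X family, Fmr1 encodes FMRP, a repressor of translation at synapses, and Fxr1 and Fxr2 encode its autosomal relatives. Fmr1 (chrX:68678541-68717963, plus strand) had 5 peaks. At E11.5 both lay deep in intron 1, at chrX:68683279-68683333 (rank 4453) and chrX:68687057-68687106 (rank 3826), 4411 and 1175 bp from the nearest exon. At E13.5 and E15.5 all 3 lay in the 3' UTR: at transcript position 2755 to 2802 at E13.5 (chrX:68716309-68716356, rank 5446, 92.8%), and at 3556 to 3634 (chrX:68717110-68717188, rank 7966) and 3879 to 3961 (chrX:68717433-68717515, rank 2180, 21.2%) at E15.5. No Fmr1 peak was listed at E17.5. The 3' UTR of Fmr1 runs from the end of the CDS at position 2121 to the transcript end at 4409, and no 2 of its peaks overlapped.

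Fxr2 (chr11:69632990-69653297, plus strand) had 1 peak at E15.5, in the CDS at codons 517 to 533 (chr11:69651537-69651586, rank 3622, 35.3%), and 7 at E17.5. Those of E17.5 ran from the start to the end of the coding sequence. One covered the start codon, at transcript positions 274 to 386 where the CDS begins at 329 (chr11:69633263-69633375, rank 5516). Others lay at codons 182 to 210 (chr11:69643838-69643923, rank 5556) and 615 to 643 (chr11:69652222-69652307, rank 5076). The strongest (chr11:69652601-69652826, rank 881, 13.9%) covered codon 644 through the stop codon and the first part of the 3' UTR, and another lay in the 3' UTR (chr11:69652894-69652949, rank 2659).

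The remaining Fxr2 peaks of E17.5 straddled exon edges. The wider (chr11:69651600-69652006, rank 3006) spanned intron 14, with 254 bp of intron in 407 bp. The other (chr11:69652365-69652485, rank 3170) lay in intron 16 of the coding isoform and touched a noncoding exon of another isoform with 62 of its 121 bp. Fxr1 (chr3:34019943-34070322, plus strand) had no peak on its strand on any day, and neither did the 5000 bp on either side of it. Within this family, Fmr1 was listed in exons at E13.5 and E15.5 and Fxr2 at E15.5 and E17.5, with no exonic peak of the family at E11.5.

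Cpeb4 encodes a cytoplasmic polyadenylation element-binding protein, which controls the tail length and translation of its target RNAs. Its gene (chr11:31872211-31935634, plus strand) had peaks at E11.5 only, 3 in number and all at the end of the coding region. One (chr11:31930369-31930665, rank 402, 6.16%) and another (chr11:31931041-31931110, rank 426, 6.52%) held no exonic base and lay in intron 8, which is 1085 bp long. The remaining peak (chr11:31931163-31931327, rank 3890, 59.6%) overlapped the edge of exon 9 with 23 of its 165 bp. Cpeb4 thus counts as having an exonic peak through 23 bases, and it did not count when at least 50% of a peak had to be exonic. Both intronic peaks ranked high by p while their deposited signal was low: 22.8% and 22.5% of the day's peaks had a lower signal. Pum2, a pumilio repressor that binds 3' UTRs (chr12:8674134-8752581, plus strand), had no peak in its gene body or within 5000 bp of it, despite a 2841-nt 3' UTR.

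Ddx6 encodes a DEAD-box helicase of processing bodies that couples repression to decapping. The gene (chr9:44604892-44640731, plus strand) had 4 peaks at E11.5, a single one at E13.5, 4 on day E15.5 and none on day E17.5, all inside exons. Of these 9, 8 lay in the 4250-nt 3' UTR, within transcript positions 3808 to 5883 of 6065. At E11.5 these were chr9:44638474-44638564 (rank 1214, 18.6%), chr9:44638850-44638928 (rank 6340) and chr9:44639351-44639402 (rank 5289). At E13.5 it was chr9:44639946-44640000 (rank 4525, 77.1%).

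The E15.5 peaks of Ddx6 were chr9:44639103-44639155 (rank 1815, 17.7%), chr9:44639300-44639377 (rank 7267), chr9:44640323-44640414 (rank 6115) and chr9:44640487-44640549 (rank 4272). The one at rank 6115 had a high deposited signal, above that of 92.7% of the day's peaks, and a middling p. The only Ddx6 peak outside the 3' UTR was in exon 5 at E11.5, codons 144 to 161 (chr9:44623681-44623732, rank 412, 6.31%). This coding stretch is 100% identical over its 52 nt to the processed pseudogene Gm13410 (chr2:24179325-24179376), where a peak of 49 bp was also listed at E11.5 (chr2:24179325-24179373, rank 301). Which of the 2 loci the reads came from is therefore uncertain, and Ddx6 keeps its 3 peaks in the 3' UTR at E11.5 without it.

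Syncrip encodes hnRNP Q, an RNA-binding component of neuronal transport granules. Its gene (chr9:88447009-88482574, minus strand) had 1 peak, at E11.5, from codon 3 to codon 31 in exon 2 (chr9:88480663-88480745, rank 3113, 47.7%). Its deposited signal was above that of 87.2% of the day's peaks. This stretch is 100% identical to the processed pseudogene Gm6501 and 92.9% identical to Gm5317, neither of which had a peak on any day, so the assignment to Syncrip is uncertain too. None of its 7245-nt 3' UTR, the longest of the 9, was under a peak on the sense strand.

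**Figure D2:**
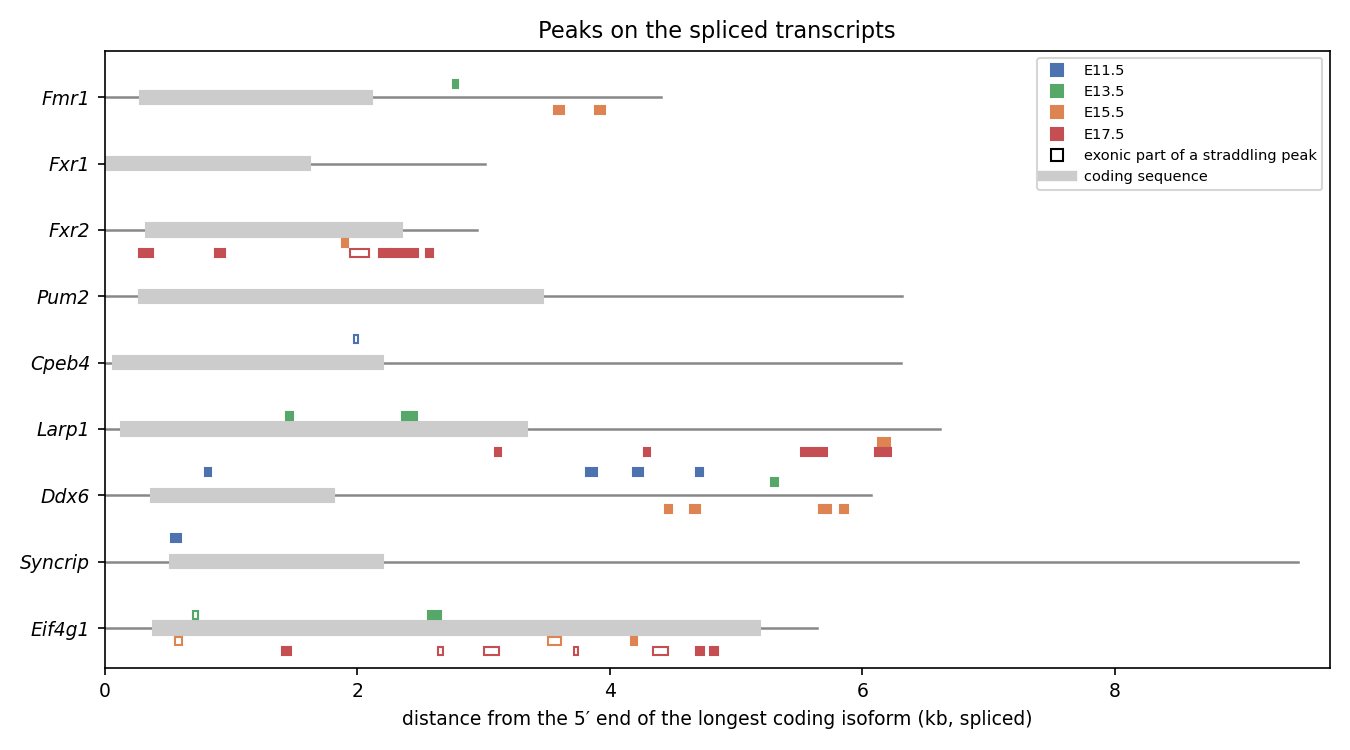
Peaks on the longest coding isoform of each gene, in kb of spliced RNA from the 5′ end, coloured by day; the grey box is the coding sequence and open boxes are the exonic part of straddling peaks. Ddx6 peaks gather in the 3' UTR between positions 3808 and 5883, while those of Eif4g1 lie along the coding sequence. Peaks without a base in this isoform are not drawn.

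By day, 3 of the 9 genes (33.3%) had an exonic peak at E11.5, Cpeb4, Ddx6 and Syncrip, beside 9.09% of all 21951 protein-coding genes. At E13.5 it was 4 genes (44.4%), Fmr1, Larp1, Ddx6 and Eif4g1, beside 11.8%. At E15.5 it was 5 genes (55.6%), Fmr1, Fxr2, Larp1, Ddx6 and Eif4g1, beside 19.9%. At E17.5 it was 3 genes (33.3%), Fxr2, Larp1 and Eif4g1, beside 13.6%. On any day it was 7 of the 9, beside 30.1% of all protein-coding genes. Of the 9 genes, only Ddx6 among those of E11.5 was listed again later in its exons, and none was listed on all 4 days. Over all protein-coding genes, 1995 had an exonic peak at E11.5, of which 523 had it on that day alone, and 389 (1.77%) were listed on all 4 days. Cpeb4 counts at E11.5 through 23 exonic bases only, and the Syncrip stretch is 100% identical to a pseudogene.

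The 9 genes are long, with 3766 to 12297 bp of exons against a median of 3498 bp. Among the 9311 protein-coding genes within that range of lengths, 12.1% had an exonic peak on the earliest day, 15.6% at E13.5, then 26.6% at E15.5 and 17.7% on the last day. The 9 genes lay above these shares on each day. They were chosen with results of these lists known, so their excess over the background is a description. The lists do not give the abundance of the transcripts, whose part in these shares was not tested. With the stronger 50% of each day's peaks, only Larp1 of the 9 was left at E13.5.

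Exonic peaks of the 9 genes numbered 6 on each of the earliest days, E11.5 and E13.5, then 11 at E15.5 and finally 18 at E17.5, 41 in all. Over all protein-coding genes they numbered 3216, 3659, 7433 and 4604 in order of day, also more at E17.5 than at E11.5. The E15.5 list is the longest, and with the strongest 5871 peaks of each day the counts of the 9 genes were 5, 6, 6 and 17. Eif4g1 and Fxr2, with 7 each, held most of those at E17.5. Of the 32 with their midpoint in an exon, 17 were in the 3' UTR (53.1%, exact Clopper-Pearson 95% interval 34.7 to 70.9), 14 in the CDS, 1 in a noncoding exon and none in a 5' UTR. Among all protein-coding genes the 3' UTR held 56.0% of 15726 such peaks, within that interval. The genes differed among themselves: 8 of the 9 Ddx6 peaks and all 3 exonic Fmr1 peaks were in the 3' UTR, against none of the 12 of Eif4g1. The interval covers counting error only and treats peaks of 1 gene as independent, which they may not be.

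Straddling peaks made up 10 of the 41 (24.4%, interval 12.4 to 40.3), beside 20.4% over all protein-coding genes. They came from 3 genes, Eif4g1 with 7, Fxr2 with 2 and Cpeb4 with 1, and 6 of the 10 covered a whole intron. Larp1, Ddx6, Fmr1 and Syncrip had none. At E17.5 they were 6 of 18 (33.3%, interval 13.3 to 59.0), beside 20.3%.

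The peaks of these genes were of middling strength within their lists. The median rank over the 45 was at 54.0% of the day's list, with 53.1% on day E11.5, 63.4% on day E13.5, 47.9% on day E15.5 and 62.6% on day E17.5. The best-ranked peak of each day stood at 6.16% (Cpeb4), 4.16% (Larp1), 5.96% (Eif4g1) and 7.35% (Larp1). Each of these was the best of 10, 6, 11 and 18 peaks in order of day, and so ranks above the rest by choice. The medians lay close to the middle of the list or below it.

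**Figure D3:**
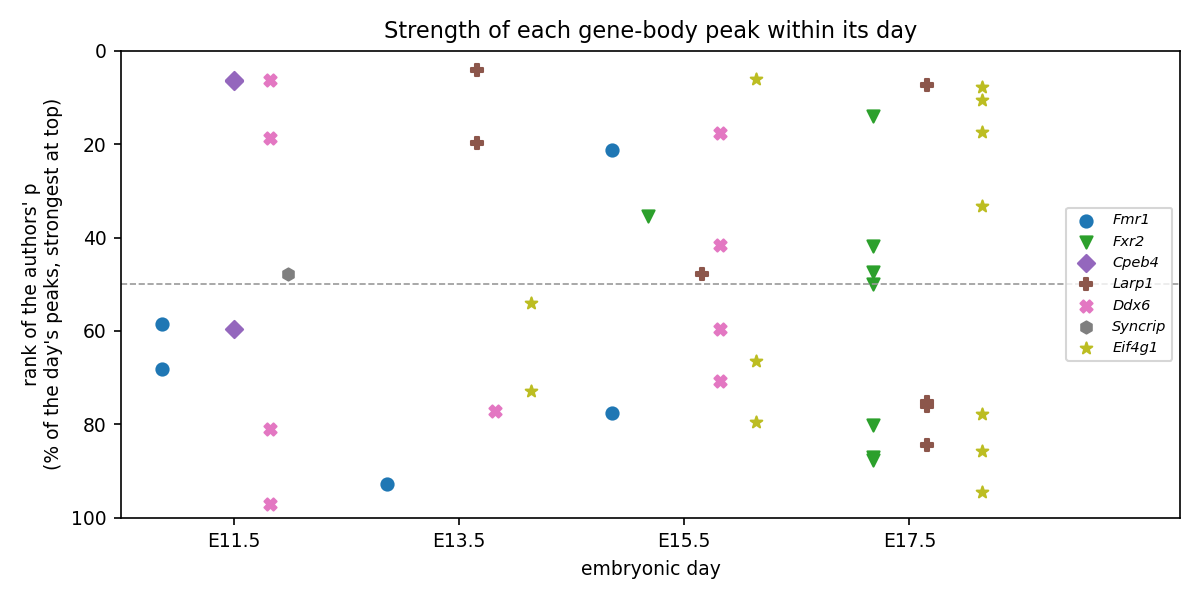
Rank of the authors' p for each of the 45 gene-body peaks, as a percentage of the peaks of its day (y axis, strongest at the top), by embryonic day (x axis) and gene (symbol). Points spread from 4.16% to 97.1%, and the dashed line marks the middle of a list. The 2 strong Cpeb4 points at E11.5 lie on top of each other.

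At 3 positions a peak of 1 day overlapped a peak of another. The same count over the peaks of all genes was not made, so 3 cannot be called many or few. The Larp1 3' UTR was listed at E15.5 and E17.5, with the whole E15.5 peak of 94 bp inside that of E17.5 and midpoints 12 bp apart. The Ddx6 3' UTR was listed at E11.5 and E15.5, with 27 bp shared (51.9% of the shorter peak). In Eif4g1 the E13.5 exon 14 peak and the E17.5 peak over exon 14 and intron 14 shared 31 bp (29% of the shorter), which are in capitals in the E13.5 peak (chr16:20681812-20681918, plus strand).
Eif4g1, E13.5: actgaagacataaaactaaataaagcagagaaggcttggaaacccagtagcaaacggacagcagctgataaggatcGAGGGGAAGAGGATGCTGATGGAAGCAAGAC

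Close neighbours without overlap were also found. In Fxr2 the E15.5 peak ended 13 bp before a peak of E17.5 began in the same exon, 14. In Ddx6 the E13.5 peak lay 322 bp from the nearest E15.5 peak. Counting midpoints within 500 bp in place of shared bases, 10 pairs of peaks lay together on different days, again without a count over all genes beside it.

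Predicted folding was compared for the 31 peaks that lay wholly in exons, each beside all windows of its length, 10 nt apart, along its own transcript. The predicted minimum free energy was lower than the median window for 12 of the 31, higher for 18 and equal for 1. By part, it was lower for 4 of 14 coding peaks and for 8 of 17 in 3' UTRs. Fewer of the peaks thus lay below their transcript's median than above it. Per nt, the peak over the Fxr2 start codon had the lowest predicted energy of the 31, at -51.3 kcal/mol over 113 nt with 73.5% GC, beside a median of -32.0 kcal/mol. All 3 Fmr1 peaks had a weaker predicted fold than their transcript's median, the E13.5 one with -0.9 kcal/mol over 48 nt beside -5.6 kcal/mol. Those of E15.5 had -4.7 beside -11.9 and, close to its median, -11.6 beside -12.3 kcal/mol. The Fmr1 3' UTR, which holds all 3, has 31.2% GC beside 39.2% over the whole transcript. The part of that difference in these values was not tested.

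Ddx6 was divided. Its E15.5 peak at chr9:44639300-44639377 had -22.1 kcal/mol beside a median of -14.3, and its E11.5 peak at chr9:44638850-44638928 had -23.4 beside -14.7. The E15.5 peak nearest the transcript end (chr9:44640487-44640549) had -5.3 beside -10.8. In Larp1, the 3' UTR position listed on 2 days was below its median, with -25.6 beside -21.3 kcal/mol at E15.5 and -35.4 beside -32.7 kcal/mol at E17.5. GC content was above that of the same transcript part for 17 of the 31 and below for 14, and ranged from 24.1% in the Fmr1 3' UTR to 73.5% in Fxr2.

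**Figure D4:**
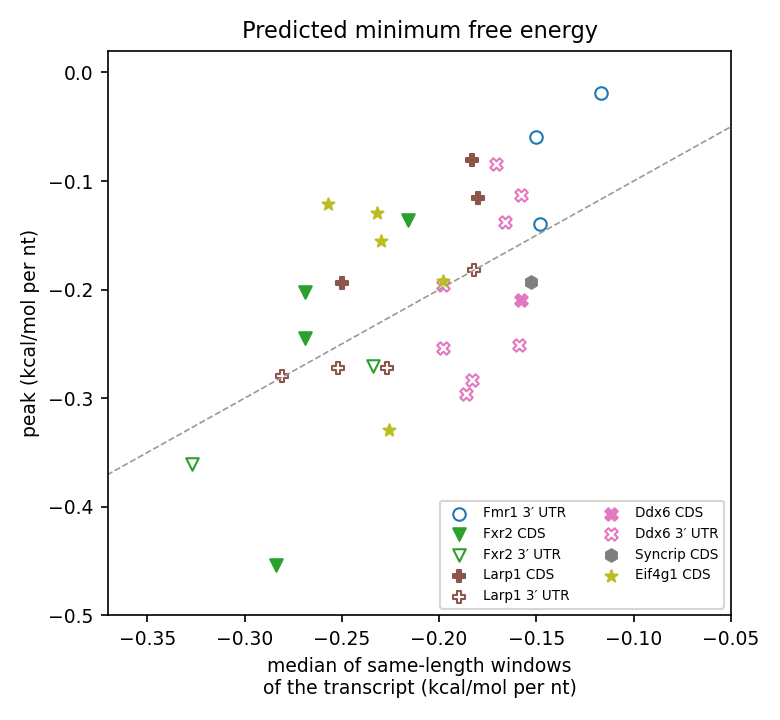
Predicted minimum free energy per nt of the 31 wholly exonic peaks (y axis) against the median of same-length windows of the same transcript (x axis), both in kcal/mol per nt, by gene (symbol) and part (filled, CDS; open, 3′ UTR). Of the points, 12 lie below the dashed line of equal values and 18 above it.

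Near-identical copies, taken as at least 90% identity over at least 80% of the peak in a transcript of another gene, were found for 4 of the 31 peaks, all coding, and every copy was a processed pseudogene. Beside Ddx6 and Syncrip these were the strongest Larp1 peak (98.1% identical to Gm16425) and the E15.5 Eif4g1 peak at rank 612 (96.0% identical to Gm13517). Neither of those pseudogenes had a peak, which does not settle where the reads came from. The assignment of these Larp1 and Eif4g1 peaks is therefore uncertain, as for Syncrip. None of the 17 peaks in 3' UTRs had such a copy. On the strand opposite to the 9 genes, 2 peaks were listed: in an Fxr1 intron at E13.5 (chr3:34055118-34055166, rank 4632) and across from the Syncrip 3' UTR at E11.5 (chr9:88453696-88453745, rank 2609).

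A further 104 genes of the same machinery were grouped by role. Of them, 39 (37.5%) had an exonic peak at E11.5, then 36 (34.6%) at E13.5, 51 (49.0%) on day E15.5 and 29 (27.9%) on day E17.5, beside the background shares given above, and 63 on any day. The background was not matched to the exon lengths or the abundance of the 104, whose part in these shares was not tested. Genes of cap binding and initiation were listed at 14, 15, 21 and 8 of 32 on the 4 days, and the partners of Ddx6 in deadenylation, decapping and repression at 9, 9, 10 and 4 of 21. Both groups were at their fewest at E17.5. The La-related genes set beside Larp1 were listed at 1, 1, 2 and 3 of 6. Other granule genes, a group that also holds Mtor, Rptor and Rps6kb1, were listed at 7, 8, 9 and 9 of 21. Neither group was at its fewest at E17.5. Mtor was among those listed at E15.5 and E17.5. The partners of FMRP were listed at 4, 1, 4 and 1 of 11. Cpeb1, Cpeb2, Cpeb3 and Nanos1 had no exonic peak on any day. The elongation factor genes Eef1a1, Eef1a2 and Eef2 had no exonic peak, while Eef2k, the gene of the kinase of eEF2, had 1 at E15.5, and all 4 hnRNP genes set beside Syncrip had at least 1.

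On all 4 days, 12 of the 104 and none of the 9 genes had an exonic peak, beside 1.77% of all protein-coding genes and 2.31% of those within the range of exon lengths of the 9. They include Pabpc1, the cytoplasmic poly(A)-binding protein gene, with 9, 5, 7 and 2 exonic peaks in order of day, and Eif4g3, the paralog of Eif4g1, with 2, 3, 2 and 4. Eif3a, a subunit gene of the eIF3 complex, had 4, 4, 3 and 2, Eif4ebp2, an eIF4E-binding repressor gene, had 1, 4, 6 and 1, and Eif5b, a gene of subunit joining, had 3, 5, 2 and 1. Among granule genes, Atxn2 had 1, 2, 8 and 6, Dhx9 had 1, 4, 6 and 3, and Tardbp had 1, 3, 5 and 4. Cnot3, Hnrnpd and Larp4b also belong to the 12. Hnrnpd counts at E13.5 through 1 peak only, wider than 5000 bp and with its midpoint in an intron (chr5:99967268-99978476). Without peaks of that width Hnrnpd is not listed on all 4 days.

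**Figure D5:**
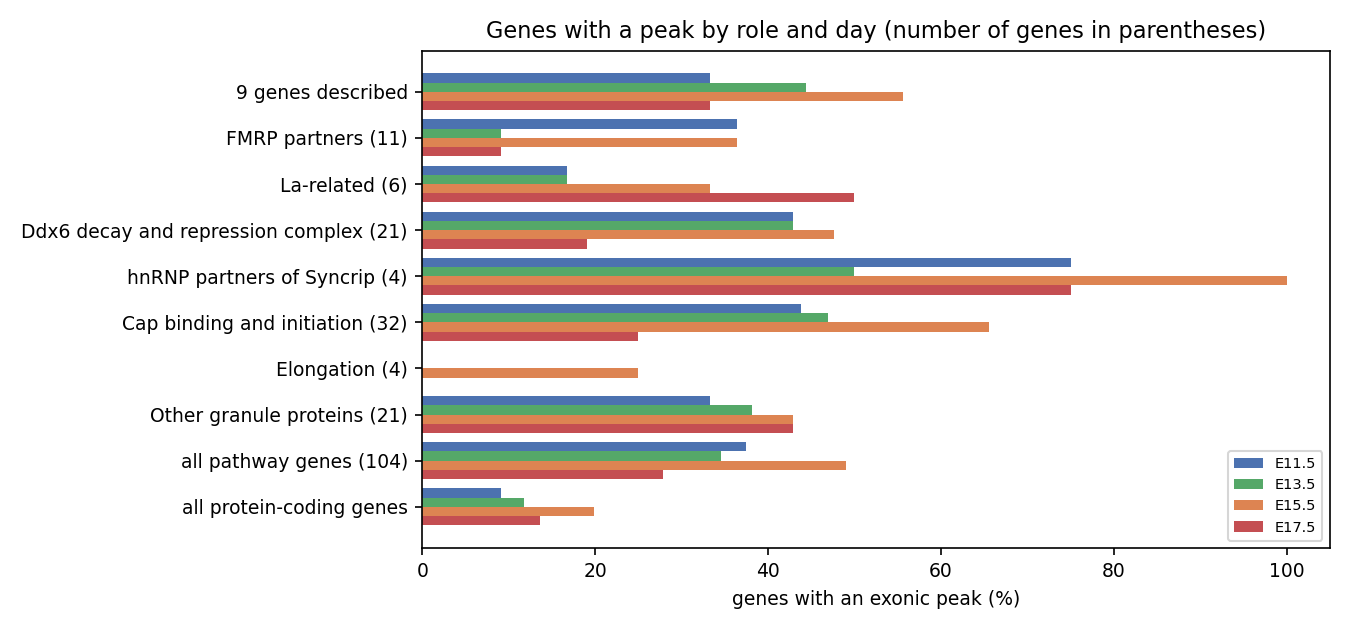
Percentage of genes with an exonic peak (x axis) on each day (colour) for the 9 genes described, for roles among the 104 further genes and for all protein-coding genes; the relatives of the pumilio and CPEB genes are counted in the 104 but not drawn as a group. The 9 genes and the 104 lie above the bottom bars on every day, and groups of 4 to 6 genes move in large steps. The FMRP partners have a lower share than all protein-coding genes at E13.5 and E17.5, 9.09% beside 11.8% and 13.6%. So do the elongation genes at E11.5, E13.5 and E17.5.

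In their set of days, Larp1 and Eif4g1 matched each other, with exonic peaks from E13.5 through E17.5 but none at E11.5, which holds for 521 protein-coding genes (2.37%). Of the 104, 4 had the same days, and Atxn2l, Cnot2 and Hnrnpr led them by rank. The days of Ddx6, E11.5 to E15.5, were those of 294 genes (1.34%), among them 8 of the 104, led by Pabpc4, Eif2ak4 and Lsm14a. Fmr1 shared its days with 503 genes (2.29%), with Eif4e2, Ythdf1 and Eif3c first among 7 of the 104. Fxr2 shared its days with 760 (3.46%), with Edc3, Ssb and Mtor first among 4 of the 104. Cpeb4 and Syncrip, listed at E11.5 alone, shared that with 523 genes (2.38%), of which Purb, Cyfip2 and Ythdf3 belong to the 104. Fxr1 and Pum2 were like 15333 protein-coding genes (69.9%) in having no exonic peak.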

How the data were processed

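Peaks were taken from 8 deposited lists, 1 per day and strand. Per the submitters' processing notes, the build was mm10 and the tools include Cufflinks 2.2.1, bedtools 2.17.0 and TopHat2 2.0.9 (TopHat is also named). The role of each tool, the peak caller and its test are, in the sources used here, not given, nor whether peaks mark RIP above input only. The authors deposited for each peak a p-value, a q-value below 0.01, a signal whose scale is not given, and a score; the deposited score was within 1 of a linear function of q in 95.9% to 99.7% of the peaks of a day and was not used. The signal served only to place a peak among those of its day.

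Of peaks over exactly 1 gene, 95.9% in the plus lists and 95.8% in the minus lists lay over a gene of that strand. Genes were those of GENCODE vM21. A peak's part was read at its midpoint in the order CDS, 3' UTR, 5' UTR, noncoding exon, intron. RNAfold 2.7.2 gave free energies and blastn 2.17.0 copies. Interval arithmetic was tested on simulated gene models. The labels call replicates biological; depth is unknown. All 9 genes were named, with their strongest exonic peak of each day and shared positions; of the 104 others, those on all 4 days and up to 3 with the days of each gene, by rank. The genes and lists were chosen with earlier results of these data known. Elongation, CPEB and Nanos genes were named after their values were seen. Some genes that the rule names are not reported here. Alternatives are in the closing section.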

Additional observations from a re-analysis of the deposited data

How the results depend on the processing

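No paired analysis was possible because the lists hold no values per replicate, and for the same reason no replicate could be left out. Of 80 values recomputed, 61 stayed within 1.5 times the reported count or within the interval of the share, and 19 did not. Most of these came from keeping the stronger 50% of each day's peaks. Exonic peaks of the 9 genes were then 3, 2, 6 and 9 in order of day, the genes with one at E13.5 were 1, peaks with an intronic midpoint were 2, 0, 0 and 3, shared positions were 1, and the 104 further genes with an exonic peak at E11.5 were 21. With the strongest 5871 peaks of each day, exonic peaks at E15.5 were 6. Intronic peaks were 0 at E13.5, E15.5 and E17.5 when no base could be exonic. Peaks opposite any part of the 9 genes, set in place of the intronic ones, numbered 1 at E11.5, 1 at E13.5 and 0 at E15.5 and E17.5. That of E11.5 lay across from the Syncrip 3' UTR, and that of E13.5 lay in an Fxr1 intron. Midpoints within 500 bp gave 10 pairs. Requiring 50% of a peak in exons, using the longest isoform or leaving out peaks wider than 5000 bp moved none of the counts recomputed by over 1.5 times.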
